A study of Mus musculus with 8 samples.

Results

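The interferon regulatory factors (IRFs) are a family of transcription factors, and 7 of their genes, Irf1, Irf2, Irf3, Irf5, Irf7, Irf8 and Irf9, were followed here in mouse liver. They were taken by name from a table of 20894 genes, and all 7 were found in it and had enough counts to be tested. The series names an axis of IRF3 and POLR2G in its title, and the comparison asks what added POLR2G does to the Irf genes themselves. None of the 7 genes changed past the threshold over all genes. Irf3 had the smallest p of the family, at a 0.768-fold level in the livers given POLR2G, while the fold estimates of Irf1, Irf2, Irf8 and Irf9 lay within 1.07-fold of the controls.

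The livers came from wild-type mice killed after fasting during the day. Each animal had received an adeno-associated virus, AAV8, that carried a gene behind the TBG promoter, which is active mainly in hepatocytes. The carried gene was POLR2G, a subunit of RNA polymerase II, in 4 libraries and green fluorescent protein (GFP) in the 4 control libraries, so both groups share the virus, the promoter and the fast. The sources used here state no strain, age, sex or virus dose. Nor do they say which library came from which animal, and p-values therefore cover only the spread of these libraries, which may be technical. A single column of the POLR2G group bears a number that the labels do not list and is called the unnumbered POLR2G library.

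IRF3 and IRF7 wait in the cytoplasm until sensors of foreign nucleic acid activate the kinases TBK1 and IKK-epsilon, which phosphorylate them, and they then enter the nucleus and switch on type I interferon genes. Secreted interferon acts through its receptor and JAK kinases to build ISGF3, a complex of STAT proteins and IRF9 that induces the interferon-stimulated genes, Irf7 among them. IRF1 activates many interferon-gamma targets and IRF2 competes for the same DNA element, while IRF5 and IRF8 work chiefly in macrophages, dendritic cells and B cells. Because IRF3 is switched on by phosphorylation, its mRNA level does not report its activity.

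Total counts per library ran from 14159056 to 22165491. Levels are given as CPM, counts scaled to library size with TMM factors, and differences as log2 fold changes of POLR2G against GFP from edgeR's quasi-likelihood test, with p-values adjusted over all 10390 genes tested. Polr2g stood at 12.4 to 14.8 CPM under GFP and at 2300 to 2632 CPM under POLR2G, in accord with the label of each library. Hepatocyte markers summed to 131080 to 152667 CPM in the GFP and 123591 to 138957 CPM in the POLR2G libraries. Alb alone averaged 98998 and 88692 CPM of that sum under GFP and POLR2G. In bulk liver, fewer cells of a type and less RNA per cell cannot be told apart. The table holds few counts for some genes that most tissues express strongly and that have several coding transcripts, such as Actb, with 0 to 29 counts in a library (chosen after its values were seen). The IRF genes have 4 to 7 annotated coding transcripts each, and whether their values cover all of these was not tested. The same holds for the other genes named that have several coding transcripts, so a low or 0 value there may not mean absence.

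At the threshold of 0.05, 0 of the 7 IRF genes passed edgeR's adjusted p, where 4 of all 10390 genes passed (0.0385%), 2 of them higher (0.0192%) and 2 lower (0.0192%). Polr2g, the carried gene itself, is among the 2 higher ones (log2 fold change 7.46). DESeq2, which called 135 genes (1.3%), and limma-voom also called 0 of the 7. At an unadjusted edgeR p under 0.05 there was 1 of the 7, Irf3, against 8.3% of all genes, or 4.1% counting lower genes only. In 0 of the 7 did the libraries of a group all lie above those of the other, against 5.51% of all genes. Of the 7, 4 had a lower and 3 a higher mean in the POLR2G libraries, with a median log2 fold change of −0.0055, beside 50.7% lower and a median of −0.0031 over all genes tested. Together the 7 genes summed to 141 to 172 CPM in the GFP and 138 to 168 CPM in the POLR2G libraries, so the groups overlap in the total as well.

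**Figure D1:**
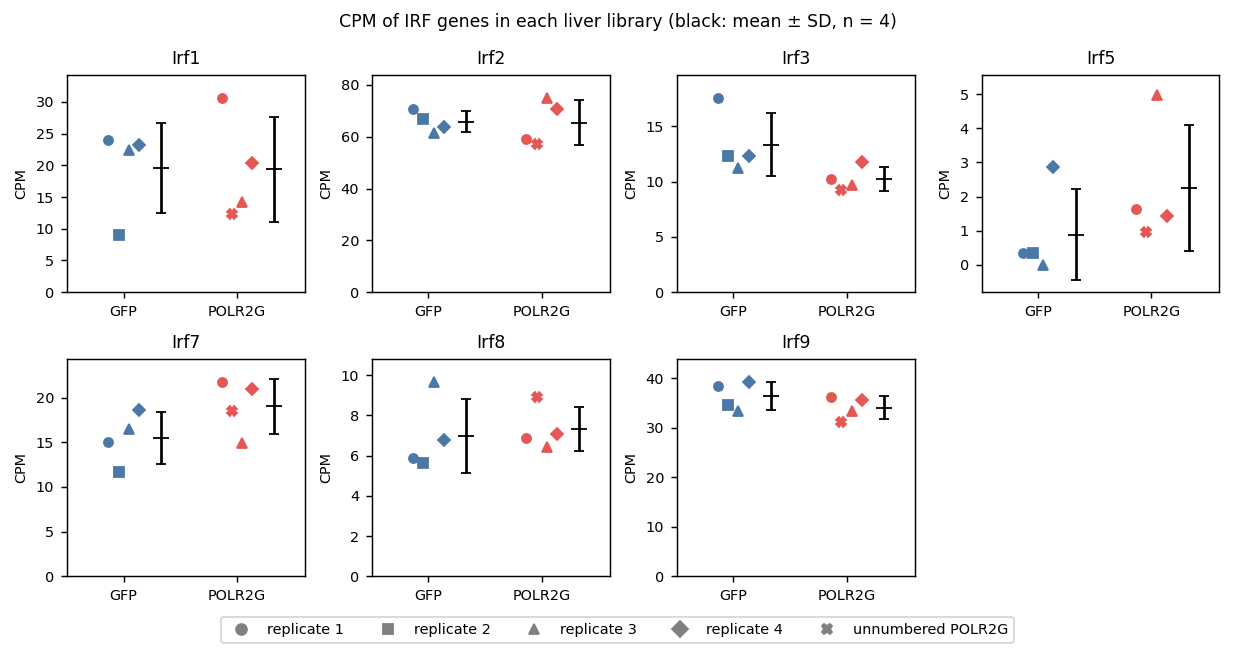
CPM of the 7 Irf genes in each library, GFP in blue and POLR2G in red, 1 point per library with the marker giving the replicate number, and the mean ± SD (n = 4) in black. The groups overlap in every panel; Irf3 shows GFP replicate 1 at 17.6 CPM above all others, and Irf5 lies between 0 and 4.98 CPM.

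Elements for the same pathway stand before the start sites of some members, and they are printed because they are the DNA letters that IRF and STAT proteins are known to read. RefSeq promoter windows on GRCm38.p6, 250 bases before to 50 after a start, were found for all 7 genes (10 windows). The motifs searched on both strands were the core of the interferon-stimulated response element, bound by IRFs and ISGF3 and read as GAAA, any 2 bases and GAAA; the gamma-activated site, bound by STAT dimers and read as TTC, any 3 bases and GAA; and the NF-kB consensus. No 2 matches shown overlap. The response element core was found in 1 of the 7 genes, Irf2, and in 3.99% of all 27025 genes with a window. The gamma-activated site was found in 3 of the 7, Irf1, Irf2 and Irf8, and in 9.55% of all genes. The NF-kB consensus was found in 2 of the 7, Irf1 and Irf2, and in 5.14% of all genes. Capitals mark the match, and each sequence reads 5′ to 3′ on the plus strand, which is the strand of the gene.
Irf1, gamma-activated site, chr11:53769909-53769947: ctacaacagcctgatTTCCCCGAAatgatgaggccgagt
Irf2, response element core, chr8:46739495-46739528: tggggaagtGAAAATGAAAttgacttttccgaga
Irf2, gamma-activated site, chr8:46739506-46739544: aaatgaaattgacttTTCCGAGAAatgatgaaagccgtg
Irf8, first gamma-activated site, chr8:120736172-120736210: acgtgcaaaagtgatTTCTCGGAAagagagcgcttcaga
Irf8, second gamma-activated site, chr8:120736190-120736228: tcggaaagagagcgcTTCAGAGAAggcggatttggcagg
The Irf1 match ends 82 bases before the start, the Irf2 matches end 232 and 216 bases before it, and the Irf8 matches 163 and 145. The windows of Irf2 also touch an exon of Gm16675, a non-coding RNA gene read from the opposite strand. The windows of Irf3, Irf5, Irf7 and Irf9 held none of the 3 motifs. A match is a description of letters, and no binding was measured.

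Irf3 (ENSMUSG00000003184; GRCm38 chromosome 7, 44997648 to 45002848, plus strand) is the gene of the series title. Its counts in GFP replicates 1 to 4 were 311, 212, 174 and 227, or 17.6, 12.3, 11.2 and 12.3 CPM. In POLR2G replicates 1, 3 and 4 and the unnumbered library they were 213, 166, 206 and 155, or 10.3, 9.72, 11.7 and 9.28 CPM. The groups touch at their edges: POLR2G replicate 4 lay above GFP replicate 3, and the other POLR2G libraries lay below every GFP library. The log2 fold change was −0.38 (SE 0.160, 95% interval −0.74 to −0.021, unadjusted p = 0.0402, edgeR adjusted p = 0.565), or 13.4 ± 2.87 against 10.3 ± 1.07 CPM (SD, n = 4 each; exact two-sided permutation p = 0.0571). The interval runs from a 0.598-fold to a 0.986-fold level relative to the controls. Without GFP replicate 1 the log2 fold change was −0.22 (edgeR adjusted p = 0.722), so that library carries a large part of the difference. By unadjusted p, Irf3 ranked 739 among the 10390 genes.

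The genes around Irf3 were measured beside it. Bcl2l12, which encodes a BCL2-related protein, is read from the opposite strand and its annotated span overlaps the start of Irf3. It had 0 to 6 counts in a library, too few to test, and since the sources used here do not say whether the counting used strand, reads of the shared stretch cannot be told apart. Scaf1, a splicing-related gene that ends 100 bases beyond Irf3 on the opposite strand, measured 26.4 ± 4.75 and 27.8 ± 4.21 CPM under GFP and POLR2G (log2 fold change 0.076, SE 0.152, edgeR adjusted p = 0.940). Of the 9 neighbours listed, 8 were tested and 0 passed (edgeR; 0 also at an unadjusted p under 0.05, and 0 by DESeq2 and limma-voom). Their median log2 fold change was 0.080, with 7 higher and 1 lower means, and Nosip (0.39, SE 0.336) and Prr12 (0.20, SE 0.170) had the smallest p. A lower mean as large as that of Irf3 was thus not seen in the tested genes beside it, although the difference between Irf3 and its neighbours was not tested. Fgf21, the fasting-induced hormone gene named with IRF3 in the title, lies 611.0 kb from Irf3 on the same chromosome and measured 2.34 ± 0.584 CPM under GFP and 0.864 ± 0.379 CPM under POLR2G (log2 fold change −1.44, SE 0.381, edgeR adjusted p = 0.344). For Fgf21, with 10 to 52 counts in a library, every POLR2G library lay below every GFP library. Groups that do not overlap, in either direction, were found for 5.51% of all tested genes. For Irf3, 3 of the 4 POLR2G libraries lay below every GFP library. A link between Fgf21 and Irf3 was not tested.

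Irf7 (ENSMUSG00000025498; chromosome 7, 141262706 to 141266481, minus strand) encodes the factor that amplifies the interferon response and is itself induced by interferon. It measured 14.98, 11.7, 16.5 and 18.6 CPM in GFP replicates 1 to 4. The POLR2G libraries had 21.8, 14.9 and 20.96 CPM in replicates 1, 3 and 4 and 18.5 CPM in the unnumbered library. POLR2G replicates 1 and 4 lay above all GFP libraries, and replicate 3 lay among the lower ones. The log2 fold change was 0.30 (SE 0.166, 95% interval −0.072 to 0.67, edgeR adjusted p = 0.699; exact permutation p = 0.200), opposite in sign to that of Irf3. Without GFP replicate 2, the lowest library, it was 0.19 (edgeR adjusted p = 0.806).

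Irf9 (ENSMUSG00000002325; chromosome 14, 55603571 to 55610030, plus strand), the DNA-binding part of ISGF3, had the lowest spread of the 7 by edgeR's estimate over both groups, although among the GFP libraries alone the SD of Irf2 was a smaller share of its mean (6.16% against 7.79%). It ran from 33.5 to 39.3 CPM in the GFP libraries, in the order of replicates 38.5, 34.7, 33.5 and 39.3. The POLR2G libraries held 36.3, 33.3 and 35.5 CPM in replicates 1, 3 and 4 and 31.1 CPM in the unnumbered library. Its log2 fold change was −0.099 (SE 0.0826, 95% interval −0.28 to 0.086, edgeR adjusted p = 0.818). The interval reaches from a 0.821-fold to a 1.06-fold level. Its biological coefficient of variation, the spread between libraries beyond counting error, was 0.096, and 10.5% of all tested genes had a lower one.

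Irf1 (ENSMUSG00000018899; chromosome 11, 53770014 to 53778374, plus strand) encodes the activator that gave the family its name and is rapidly induced by interferon-gamma. Among the GFP libraries replicate 2 held 8.99 CPM while replicates 1, 3 and 4 held 24.0, 22.4 and 23.2 CPM. Among the POLR2G libraries replicate 1 held 30.6 CPM, replicate 4 held 20.3, replicate 3 held 14.2 and the unnumbered library 12.3 CPM. Both groups thus span most of the range of the gene, and the means were 19.6 ± 7.12 and 19.4 ± 8.26 CPM (SD, n = 4 each; log2 fold change −0.015, SE 0.351, edgeR adjusted p = 0.997). With a coefficient of variation of 0.348, above that of 79.1% of tested genes, the 95% interval still allows a level from 0.573-fold to 1.71-fold of the controls.

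Irf2 (ENSMUSG00000031627; chromosome 8, 46739732 to 46847458, plus strand), the antagonist of IRF1 at shared sites, was the most abundant of the 7. It measured 70.8, 66.8, 61.4 and 63.7 CPM in GFP replicates 1 to 4. It measured 59.0, 75.002 and 70.8 CPM in POLR2G replicates 1, 3 and 4 and 57.1 CPM in the unnumbered library. The POLR2G libraries lay on both sides of the GFP libraries, 2 below all of them and 1 above. Its log2 fold change was −0.0055 (SE 0.100, edgeR adjusted p = 0.996), with an interval from 0.852-fold to 1.16-fold, so a change beyond about that size lies outside the interval for Irf2 while it does not for Irf1. Of the windows printed above, that of Irf2 holds the response element core, and those of Irf1, Irf2 and Irf8 hold a gamma-activated site.

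Irf8 (ENSMUSG00000041515; chromosome 8, 120736358 to 120756694, plus strand) and Irf5 (ENSMUSG00000029771; chromosome 6, 29526625 to 29541871, plus strand) encode the myeloid members. Irf8 measured 5.88, 5.63, 9.67 and 6.77 CPM in GFP replicates 1 to 4. It measured 6.90, 6.44 and 7.06 CPM in POLR2G replicates 1, 3 and 4 and 8.92 CPM in the unnumbered library. Its groups overlap (log2 fold change 0.070, SE 0.206, 95% interval −0.39 to 0.53, edgeR adjusted p = 0.962). Irf5 had 6, 6, 0 and 53 counts in GFP replicates 1 to 4. It had 34, 85 and 25 counts in POLR2G replicates 1, 3 and 4 and 16 in the unnumbered library. A count of 0 in GFP replicate 3 allows up to 3 counts, or 0.193 CPM, for counting error only. The log2 fold change of Irf5 was 1.31, but with an SE of 1.005 and an interval from −0.95 to 3.57 (edgeR adjusted p = 0.792). Its size moved with single libraries, to 3.23 without GFP replicate 4 and 0.58 without POLR2G replicate 3, and with the method, to 2.36 with limma-voom. The coefficient of variation of Irf5 was 0.986, and 98% of tested genes had a lower one.

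**Figure D2:**
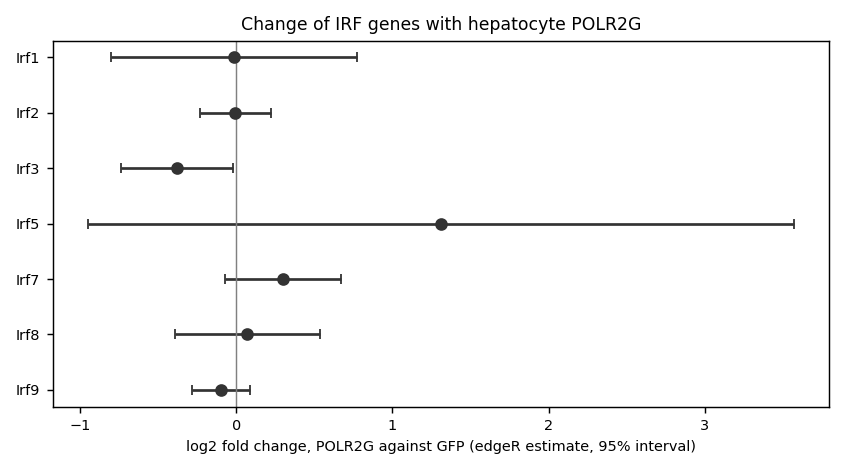
Log2 fold change of POLR2G against GFP for the 7 Irf genes, with the edgeR estimate as a point and its 95% interval as a bar (n = 4 libraries each). The interval of Irf3 ends just below 0, at −0.021, those of Irf2 and Irf9 are narrow and cross 0, and that of Irf5 spans −0.95 to 3.57.

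Markers of the cells in which IRF5 and IRF8 chiefly act were read beside these genes. The 16 Kupffer cell and macrophage markers summed to 313 to 461 CPM in the GFP and 344 to 669 CPM in the POLR2G libraries, highest in the unnumbered POLR2G library. Marco, part of that sum, was very uneven under POLR2G, at 7.80 ± 3.37 CPM under GFP and 19.9 ± 27.3 CPM under POLR2G. Of the 15 tested, 12 had a higher and 3 a lower mean (median log2 fold change 0.20). Of these, 0 passed edgeR, with 1 at an unadjusted p under 0.05, against 8.3% of all genes. That marker was Lyz2, a lysozyme (0.61, SE 0.250), and Csf1r, the receptor of a macrophage growth factor (−0.52, SE 0.275), was second by p. Defining Kupffer markers were present, such as Clec4f at 94.0 ± 19.4 and 101 ± 14.9 CPM, while Cd68 had 0 to 4 counts. The unnumbered POLR2G library also held the highest Irf8 of its group, and GFP replicates 3 and 4, with 429 and 461 CPM of the markers, held more Irf8 than GFP replicates 1 and 2, with 313 and 315 CPM. Irf5 did not follow that order, with 0 counts in GFP replicate 3. Dendritic cell markers were scarce apart from Bst2, which many cell types express. Of 9 in the table, Clec9a, Batf3, Siglech, Cd209a and Itgax were too low to test, and 0 of the other 4 passed, with Xcr1 (0.49, SE 0.306) and Tcf4 (−0.50, SE 0.312) the smallest by p. B, T and NK cell markers were mostly too low as well, with 3 of 15 tested and 0 passing, led by Cd4 (0.37, SE 0.326) and Ptprc (0.25, SE 0.286), the latter a gene of all leukocytes, macrophages included. Ptprc made up 8.14 and 9.66 CPM under GFP and POLR2G of list sums that averaged 13.5 and 16.6 CPM and ran from 9.5 to 17.1 and from 13.2 to 23.3 CPM. The part of cell content in the Irf5 and Irf8 values was not tested.

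Across genes, levels were compared per kilobase of the longest annotated coding transcript. Irf2 was highest at 26.3 ± 2.53 CPM per kb (SD over the 8 libraries), above the other 6 in all 8 libraries. Irf9 at 11.9 ± 0.926, Irf1 at 9.13 ± 3.34, Irf7 at 7.71 ± 1.51 and Irf3 at 5.81 ± 1.28 CPM per kb followed. From Irf9 to Irf3 neighbours in this order overlap in their library ranges, so the order of neighbours is not resolved by the spread: Irf9 exceeded Irf1 in 7 of 8 libraries, Irf1 exceeded Irf7 in 5 and Irf7 exceeded Irf3 in 6. The lowest Irf9 library, at 10.5 CPM per kb, lay above the highest of Irf7 (9.73) and of Irf3 (8.66). Irf3 lay above Irf8, at 2.51 ± 0.499, in all 8 libraries with no overlap. Irf5 was lowest of the 7 at 0.701 ± 0.739 CPM per kb. With the shortest coding transcript as the length, the order was the same except that Irf3 moved ahead of Irf7.

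**Figure D3:**
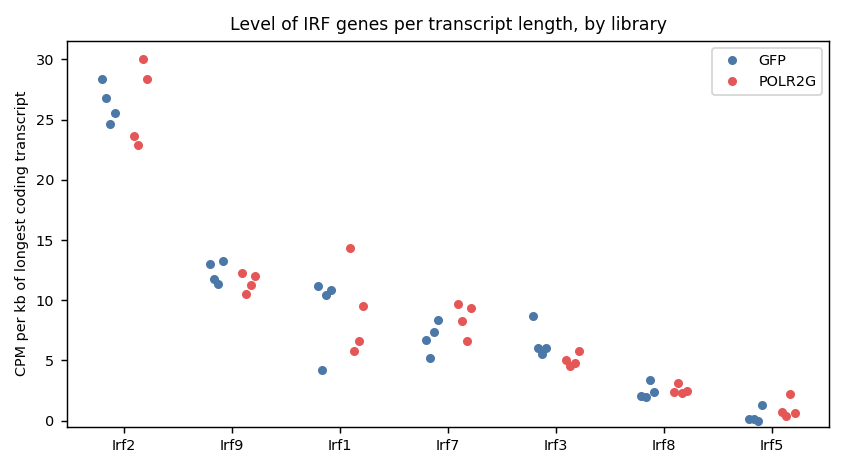
CPM per kb of the longest coding transcript for the 7 Irf genes, 1 point per library, GFP in blue and POLR2G in red. Irf2 lies above all others, between 22.9 and 30.04, and Irf5 lies at the bottom, between 0 and 2.22.

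Outside the 7, Irf4, a lymphoid and myeloid family member, had 1 to 9 counts and was not tested. Of the genes of IRF2-binding proteins, which act as corepressors, Irf2bpl had the smallest p, at 28.6 ± 3.32 and 35.2 ± 5.98 CPM (log2 fold change 0.30, SE 0.136, edgeR adjusted p = 0.604). Irf2bp1 (−0.084, SE 0.117) and Irf2bp2 (−0.049, SE 0.195) did not pass.

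Pairs of members varied together or against each other across the 8 libraries, which share the 2 groups and the TMM scaling. After removal of the group means, Irf1 and Irf7 had a Pearson r of 0.81 and Irf1 and Irf9 one of 0.66, given as a description with n = 8. They are the highest values of all pairs of members, and removal of group means leaves fewer free values than n = 8. GFP replicate 2 was the lowest library for both Irf1 and Irf7, and POLR2G replicate 1 the highest for both. Irf3 had an r of 0.62 with Irf9 and of 0.089 with Irf7. Irf8 ran against several members, with an r of −0.63 with Irf2, −0.57 with Irf5, −0.56 with Irf9 and −0.54 with Irf3, and Irf2 and Irf7 had an r of −0.47. Without removal of the group means the values were 0.67 for Irf1 and Irf7, 0.58 for Irf1 and Irf9, 0.72 for Irf3 and Irf9, and −0.32 for Irf3 and Irf7. Among 10377 other coding genes, Ugt2b37, a glucuronosyltransferase with near-identical copies, Olfr259, an olfactory receptor gene, and Spty2d1, which encodes a histone chaperone, had the patterns most like Irf3 over the 8 libraries. Their r was 0.95, 0.94 and 0.94 (Spearman 0.86, 0.90 and 0.83). These fell to 0.81, 0.80 and 0.85 without GFP replicate 1 and the unnumbered POLR2G library, the 2 libraries farthest from the median of Irf3. The highest r picked from 10377 genes over 8 libraries can be large by chance. How many genes would reach such values by chance was not tested. Group means were not removed for this search, and Ugt2b37, Olfr259 and Spty2d1 were lower under POLR2G (log2 fold change −1.17, −0.82 and −0.25), as Irf3 was. The share of the group difference in their r was not tested.

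**Figure D4:**
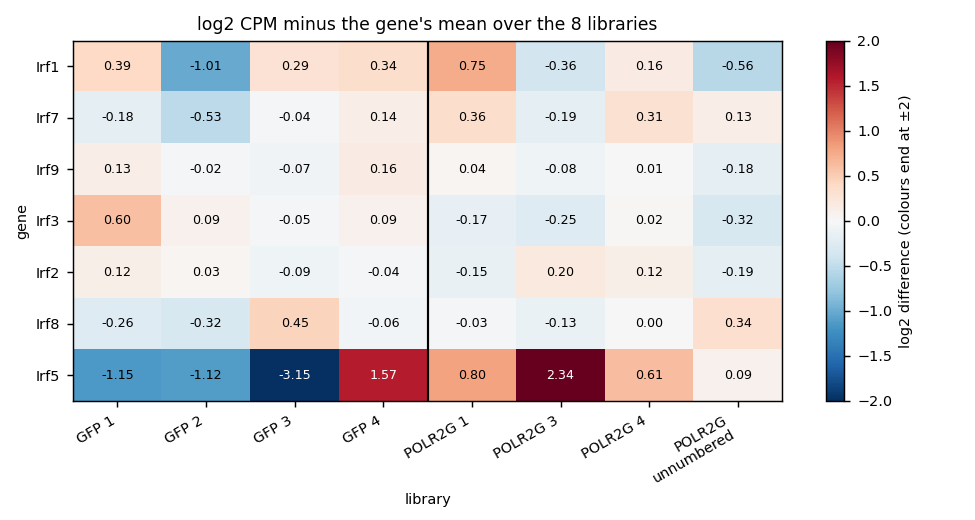
Log2 CPM of the 7 Irf genes minus each gene's mean over the 8 libraries, printed in each cell, with GFP libraries left of the line and POLR2G libraries right of it. Irf1 and Irf7 are both lowest in GFP replicate 2 (−1.01 and −0.53) and highest in POLR2G replicate 1 (0.75 and 0.36), and the Irf5 row has the widest range.

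Upstream of the IRFs, 21 genes of nucleic acid sensors, adaptors and kinases were in the table and 17 were tested. Of these, 0 passed edgeR (0 at an unadjusted p under 0.05, and 0 by DESeq2 and limma-voom), with 6 higher and 11 lower means and a median log2 fold change of −0.044. Mavs, the adaptor of the RNA sensors on mitochondria, measured 56.4 ± 6.03 and 49.3 ± 4.65 CPM (−0.19, SE 0.0978), and Irak1, a kinase of Toll-like receptor signalling, −0.17 (SE 0.0879). The kinase gene Tbk1 measured 27.0 ± 0.655 and 27.0 ± 3.80 CPM (chosen after its values were seen). Summed over the list, the POLR2G libraries held 443 to 462 CPM and the GFP libraries 474 to 502 CPM, so the sums of the groups do not overlap. Sums were made for every list, and this was the only list whose group sums do not overlap. The difference, and how often a list sum would separate by chance, was not tested. The sum is weighted to abundant genes, such as Trim25 (139 and 127 CPM under GFP and POLR2G), Chuk (67.2 and 62.1), Irak1 (59.8 and 53.2) and Mavs. Of the 17 tested genes taken singly, 0 had groups that did not overlap, against 5.51% of all genes. Ddx58, an RNA sensor gene, was listed at 0 in every library and Tlr4, Tlr7 and Traf3 were too low to test. Whether these values cover all coding transcripts of each gene was not tested, so they may not mean absence.

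**Figure D5:**
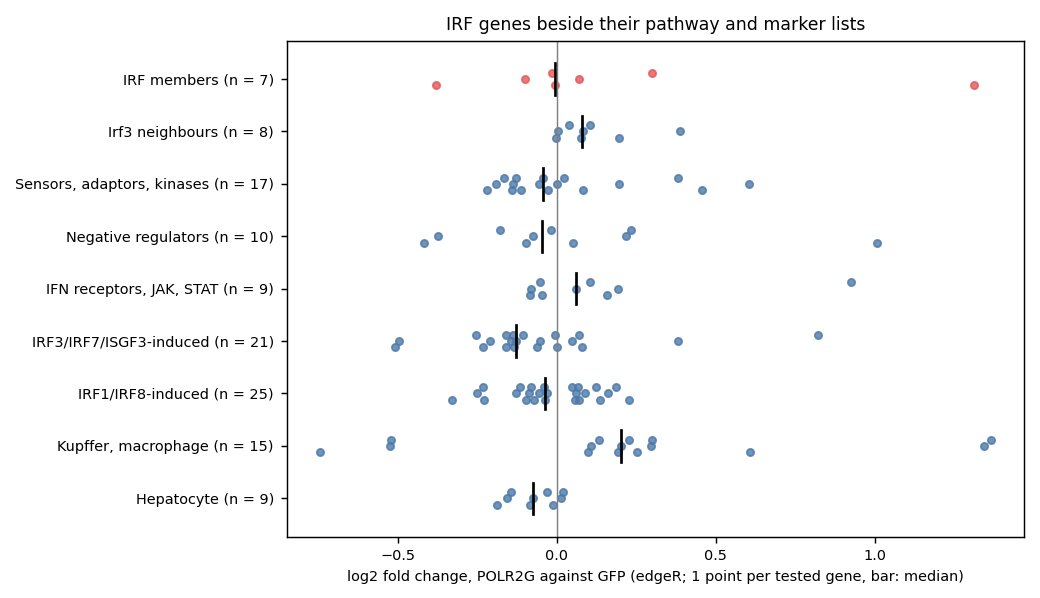
Log2 fold change of POLR2G against GFP for every tested gene of the Irf family (red) and of 8 pathway or marker lists (blue), 1 point per gene with the list median as a black bar. Medians lie between −0.13, for genes induced through IRF3, IRF7 or ISGF3, and 0.20, for Kupffer cell and macrophage markers.

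Interferon genes were at or near 0. Of 21 interferon genes listed, 19, Ifnb1 and all listed Ifna genes among them, were at 0 in every library, which allows up to 3 counts in a library (0.145 to 0.193 CPM; counting error only). The remaining 2, Ifnk and Ifng, gave 18 counts together over the 8 libraries, and neither was tested. On the receiving side, 9 genes of interferon receptors, JAK kinases and STAT proteins were tested and 0 passed (edgeR; 0 at an unadjusted p under 0.05, and 0 by DESeq2 and limma-voom; 5 higher, 4 lower, median 0.060). The kinase genes Tyk2 (0.19, SE 0.0948) and Jak1 (0.11, SE 0.0678) had the smallest p. Stat2, which encodes a partner of IRF9 in ISGF3, measured 61.8 ± 3.03 CPM under GFP and 59.6 ± 3.10 CPM under POLR2G (chosen after its values were seen).

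Of the genes that restrain IRF and interferon signalling, 13 were in the table and 10 tested, and 0 passed edgeR over all genes. At an unadjusted edgeR p under 0.05 there were 2 of the 10, against 8.3% of all genes. The median log2 fold change was −0.048 (4 higher, 6 lower), and Socs3 had the smallest p. Socs3, which blocks cytokine receptors, was higher in every POLR2G library, at 5.37, 5.28, 4.51 and 5.69 CPM in GFP replicates 1 to 4. POLR2G replicates 1, 3 and 4 held 9.36, 9.60 and 14.4 CPM and the unnumbered library 8.62 CPM. Groups that do not overlap, in either direction, were found for 5.51% of all tested genes. The log2 fold change of Socs3 was 1.006 (SE 0.189, edgeR adjusted p = 0.164). It was the only gene of all the lists that DESeq2 called, where DESeq2 called 1.3% of all genes, and limma-voom called 0 listed genes. Otud5, a deubiquitinase, had a log2 fold change of −0.42 (SE 0.176, edgeR adjusted p = 0.565).

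Downstream, of 21 tested genes induced through IRF3, IRF7 or ISGF3, 0 passed edgeR (0 at an unadjusted p under 0.05, and 0 by DESeq2 and limma-voom). Their means were lower in 15 and higher in 6, with a median log2 fold change of −0.13. Of these, Oas3, an antiviral synthetase gene (−0.50, SE 0.263), and the chemokine gene Ccl5 (0.82, SE 0.475) had the smallest p. The summed level ran from 623 to 681 CPM in the GFP and 605 to 709 CPM in the POLR2G libraries. Most of that sum came from Ifitm3 (292 and 301 CPM under GFP and POLR2G) and Bst2 (137 and 145 CPM), so it says little of the other genes. Cxcl10, a chemokine gene that IRF3 induces in infected cells, was listed at 0 in every library. It has 2 annotated coding transcripts, and whether its value covers them was not tested, so the 0 may not mean absence. Of 25 tested genes induced through IRF1 or IRF8, such as those of antigen processing, 0 passed (edgeR; 0 at an unadjusted p under 0.05, and 0 by DESeq2 and limma-voom; 11 higher, 14 lower, median −0.037). The proteasome activator gene Psme1 (−0.12, SE 0.0710) and the immunoproteasome gene Psmb9 (0.23, SE 0.147) led them, and the list summed to 3222 to 3486 and 3177 to 3603 CPM. B2m alone averaged 1693 and 1765 CPM of that sum under GFP and POLR2G. Of liver endothelial and stellate cell markers 10 were tested and of hepatocyte markers 9, and edgeR, DESeq2 and limma-voom called 0 of them. Each list had 1 gene at an unadjusted edgeR p under 0.05, against 8.3% of all genes. These were Lyve1 (−0.85, SE 0.277), ahead of Pecam1 (0.21, SE 0.161), and the plasma protein gene Ttr (−0.19, SE 0.0761), ahead of Alb (−0.16, SE 0.0894).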

How the data were processed

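Poly-A RNA of frozen liver was sequenced, and the library kit kept strand, per the labels' protocols. The authors deposited whole-number counts per gene with no normalization; the submitters' processing notes name Salmon 1.2.1 and GRCm38 and mm10, with no role. The sources used here do not state the annotation, any rounding or how transcripts were summed. Symbols, spans and transcript lengths came from GENCODE M21 (GRCm38), which named 20817 of 20894 identifiers, and promoter letters from RefSeq on GRCm38.p6. Columns were matched to samples by library name.

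The test was edgeR 4.0.16 (R 4.3.3; TMM; filterByExpr with minimum count 10 and minimum total 15; quasi-likelihood; Benjamini-Hochberg over 10390 genes; threshold 0.05). Intervals are 95% and use the SE, the log2 fold change divided by the square root of F. Exact two-sided permutation tests used log2 CPM (prior count 2) over all 70 arrangements; the smallest possible p is 0.0286. Steps were tested on simulated data. Alternatives were RLE, upper quartile or no scaling factors, DESeq2 1.42.0, limma-voom (limma 3.58.1), 2 other low-count filters, Polr2g left out, a replicate block and each library left out. Named genes are the 7 members, Polr2g, Fgf21, the genes next to Irf3, Irf4, the 3 genes most like Irf3 and, in each list, called genes or else the 2 with the smallest p. Other genes named stand outside this rule, such as Marco, Clec4f, Cd68, Trim25, Chuk, Ifitm3, Bst2, B2m, Cxcl10 and Ddx58. They were chosen with their values known. Members and lists were chosen with earlier results of these data known. No 2 libraries of a group matched within sampling noise (12 pairs, ratio of chi-square to its degrees of freedom 13.7 to 138). Some genes that this rule names are not reported here.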

Additional observations from a re-analysis of the deposited data

Results flagged for a closer look

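Among the 14 sets of 4 libraries (7 genes in 2 groups), 4 held a library far from the other 3 by Dixon's ratio of gap to range. Chance marks about 1 in 20 sets if values are normally distributed, which CPM need not be. The share over all tested genes was not computed, so whether 4 of 14 is unusual in these libraries was not tested. Irf3 in GFP replicate 1 stood at 17.6 CPM, with the next library at 12.3 (ratio 0.830, critical value 0.829), so it passed by the narrowest margin. Irf1 in GFP replicate 2 stood low at 8.99 CPM, with the next at 22.4 (ratio 0.893). Irf5 was high in GFP replicate 4, at 2.87 CPM (ratio 0.879), and in POLR2G replicate 3, at 4.98 CPM (ratio 0.830). The 4 values fall in 4 different libraries.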

How the results depend on the processing

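No value of an Irf gene passed the threshold in any of the 126 combinations of 7 genes and 18 alternatives. Irf3 and Irf9 stayed negative and Irf5 and Irf7 positive in all 18. Directions of Irf1, Irf2 and Irf8, which lie near 0, did not hold. Irf1 was 0.0097 with upper quartile factors and 0.021 with limma-voom. Irf2 was 0.016 with upper quartile factors, and Irf8 was −0.012 with library totals only. With single libraries left out, ranges were −0.33 to 0.15 for Irf1, −0.077 to 0.055 for Irf2, −0.46 to −0.22 for Irf3, 0.58 to 3.23 for Irf5, 0.19 to 0.40 for Irf7, −0.037 to 0.26 for Irf8 and −0.14 to −0.058 for Irf9. The sign of Irf1 turned without GFP replicate 1, 3 or 4, POLR2G replicate 3 or the unnumbered POLR2G library. That of Irf2 turned without GFP replicate 1 or 2, POLR2G replicate 1 or the unnumbered library, and that of Irf8 without GFP replicate 1 or 2 or the unnumbered library. Genes called over the whole table numbered 135 with DESeq2, 1 with library totals only, 2 with Polr2g left out and 1 to 6 with single libraries left out. Polr2g is itself among the 4 genes called in the main fit, so leaving it out removes a call. DESeq2 called 1 listed gene. The replicate block, on the 6 libraries with a shared number, called 2 genes, with Irf3 at −0.35, Irf2 at 0.058 and Irf8 at −0.099. The same 6 libraries without the block, chosen after seeing the data, called 1, with Irf2 at 0.062 and Irf8 at −0.13. Same-numbered libraries did not deviate together (correlations 0.064, −0.025 and 0.036 over 10390 genes), so the numbers were not taken as pairs. The cause of these changes was not tested. Irf5 had at most 85 counts in a library and a coefficient of variation beyond counting error of 0.986, where the trend for genes of its level was 0.491. Irf5 was 2.36 with limma-voom and 2.06 with the replicate block.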

Other observations

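Mx1, an interferon-induced GTPase gene, was too low to test. It held 2.71, 0, 0.709 and 1.73 CPM in GFP replicates 1 to 4 and 0.293 CPM in POLR2G replicate 3, with 0 in the other 3 POLR2G libraries (chosen after its values were seen). Rsad2, an antiviral gene of the same list, was highest in GFP replicate 1, at 26.9 CPM, the library that was also highest for Irf3, against 7.54 to 15.03 CPM in the other 7 libraries (chosen after its values were seen).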
